A study of Mus musculus with 22 samples.

Results

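The genes described are the collagens of the mouse, taken as every protein-coding row of the count table whose symbol is Col, a number, the letter a and a number. There were 44 such genes of 53379 in the table, no symbol of this form belonged to a gene of another biotype, and all 44 were among the 40714 genes that passed the filter on low counts. The libraries came from adult male C57/BL6N mice that arrived at 8 weeks of age and were kept for 4 weeks before surgery, 8 given 70 nl of 20 mM kainate above the right hippocampus, which brought on status epilepticus, and 8 sham mice given NaCl at the same place. At 24 h the left hippocampi, contralateral to the injection (CLH), were pooled into 3 samples per treatment, and nuclei of each pool were sorted by their content of NeuN, a nuclear protein of neurons, which gave a neuronal NeuN+ fraction and a NeuN- fraction of glia and any other cells without it. There were 3 kainate NeuN+, 3 sham NeuN+, 3 kainate NeuN- and 2 sham NeuN- libraries of mRNA. A replicate is a pool of 2 or 4 mice, so the spread is that between pools of unequal size. The protocol in the labels names right hippocampi, whereas the titles of the libraries, the design text and the study's methods give the left side.

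Collagens are proteins of the extracellular matrix in which 3 chains wind into a triple helix. Fibrillar collagens (types I, II, III, V, XI, XXIV and XXVII) assemble into fibrils, the FACIT collagens and their relatives (such as IX, XII, XVI and XIX) attach to fibrils or to basement membranes, type IV forms the network of basement membranes, and type VI forms beaded filaments. Types XIII, XVII, XXIII and XXV span the cell membrane, and types XV and XVIII are multiplexins of basement membrane zones. The brain has little fibrillar collagen outside its vessels and meninges, and collagen IV is best known there from the basement membrane of blood vessels. Type XIX is known as a product of hippocampal interneurons. Each chain is made as a procollagen, is hydroxylated and folded in the endoplasmic reticulum, and for the fibrillar types is trimmed by proteases outside the cell.

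Total counts of the 11 libraries ranged from 12058875 to 45428465, and the median count of a collagen gene in a library ranged from 130.5 to 659. The 4 libraries of replicate 1 stood apart, with a median count per gene of 5 to 8 and 37158 to 41933 genes with a count, against 16 to 49 and 45683 to 50104 in the other 7. Among collagens this was clearest in NeuN- nuclei, where 16 of the 44 genes were over 2-fold higher in replicate 3 than in replicate 1 under both treatments, among them Col6a5, Col4a3, Col25a1 and Col9a1. By treatment, 23 were over 2-fold higher and 4 over 2-fold lower with kainate, and 19 and 1 with sham. This was not counted over all genes. Kainate NeuN- replicate 2 and sham NeuN- replicate 1 had an RNA input of 0.05 ng and 15 cycles of PCR, whereas the input of the others was 1 ng and the cycles were 10. All 6 neuronal markers listed were higher in NeuN+ nuclei, and all 5 astrocyte, 4 oligodendrocyte, 3 precursor and 4 microglial markers were lower. Levels are given as normalized CPM, that is counts divided by the library total scaled with edgeR's TMM factors, and compared between genes only after division by the length of their exons (CPM per kb). Shares of the summed collagen CPM are the exception and are not divided by length. Log2 fold changes and FDRs are from edgeR's quasi-likelihood test over all genes, and a gene was called at FDR below 0.25, the study's threshold. Where the same test with the replicate number as a block changed a call, it is given beside it.

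In nuclei of sham mice, the summed collagen level was 1663 to 2563 CPM in the NeuN+ and 1293 to 1296 CPM in the NeuN- libraries. The genes with the highest level per length in sham NeuN+ nuclei were Col4a2 with a mean of 74.1 CPM per kb, Col6a1 with 65.6, Col4a1 with 39.8, Col19a1 with 29.0 and Col5a1 with 11.6. The ranges of 1 SD around these means overlapped from each gene to the next from Col4a2 to Col19a1, whereas those of Col19a1 and Col5a1 did not overlap. The genes were measured in the same libraries, however, and these genes kept this order in each sham NeuN+ library. In replicate 2, Col4a2 and Col6a1 were close, at 46.6 and 46.0 CPM per kb. In sham NeuN- nuclei the order was another one, with Col9a3 at 45.5 CPM per kb, Col11a2 at 25.02, Col16a1 at 17.5, Col5a3 at 14.5 and Col6a1 at 11.1, over 2 libraries, and here every pair of neighbours in the order overlapped within 1 SD. Both libraries had Col9a3 above Col11a2 and Col11a2 above Col16a1. Col16a1 and Col5a3 were nearly equal in replicate 1 (17.79 and 17.78 CPM per kb), and Col6a1 was above Col5a3 in replicate 3. At the other end were Col4a6 with 0.180 and Col4a5 with 0.198 CPM per kb in sham NeuN+ nuclei, and Col8a2 with 0.264 and Col4a6 with 0.342 in sham NeuN- nuclei. For the chains of types I and III, the main fibril formers of skin and bone, Col1a1, Col1a2 and Col3a1 had means of 1.59, 0.255 and 0.297 CPM per kb in sham NeuN+ and 4.36, 1.34 and 0.956 in sham NeuN- nuclei. In bulk libraries of this kind, fewer cells of a type and less RNA per cell cannot be told apart.

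**Figure D1:**
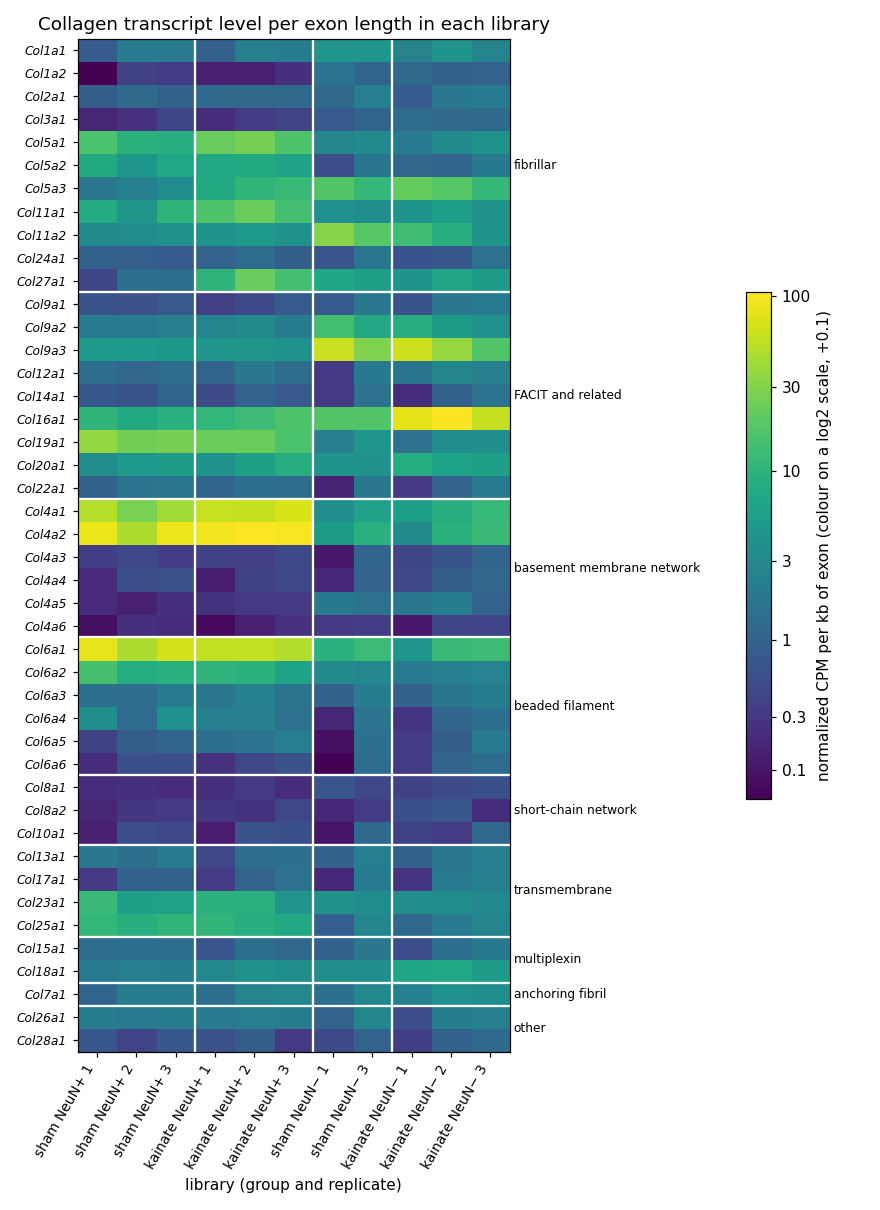
Level of each of the 44 collagen genes (rows, grouped by class) in each of the 11 libraries (columns, grouped by treatment and fraction), as normalized CPM per kb of exon on a log2 colour scale. Col4a2, Col6a1 and Col4a1 are brightest in NeuN+ libraries, Col9a3 and Col11a2 in sham NeuN- libraries, and Col16a1 and Col9a3 in kainate NeuN- libraries. The first column of each NeuN- group, replicate 1, is dark for several low genes.

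The first comparison was that of NeuN+ with NeuN- nuclei over both treatments. Collagens were divided between the fractions, with 11 genes higher in NeuN+ nuclei (25% of the 44, where 16.8% of all genes tested were) and 14 lower (31.8%, where 20.4% of all genes were). With the pool as a block, 13 were higher (29.5%, where 24.9% of all genes were) and 17 lower (38.6%, where 34.8% were), which is near the shares of all genes. The median log2 fold change of the 44 genes was -0.34 and that of all genes tested -0.47. For 9 genes every NeuN+ library was above every NeuN- library (8.92% of all genes) and for 8 every one was below (6.31%).

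Higher in neurons were chains of the basement membrane network, the beaded filament and some fibrils. Among these, Col4a1 had the smallest p and Col4a2 the largest fold change, and the pair encodes the chains of the common form of collagen IV. Col4a1 was at 443, 435 and 534 CPM in kainate NeuN+ libraries (replicates 1 to 3) and at 375, 206 and 311 in sham NeuN+ libraries, whereas the NeuN- libraries held 41.5, 63.0 and 86.9 with kainate and 26.7 and 44.8 with sham (replicates 1 and 3). Every NeuN+ library was above every NeuN- library, and the log2 fold change between the fractions was 2.97 (standard error 0.33, FDR = 3.8e-05). Col4a2 was at 622, 693 and 636 CPM in kainate NeuN+ and 583, 308 and 580 in sham NeuN+ libraries, against 20.95, 63.8 and 78.3 and then 33.4 and 60.6 CPM in the NeuN- libraries. Its log2 fold change was 3.48 (standard error 0.41, FDR = 5.01e-05), or 11.2-fold. The other chains of type IV did not share this, since Col4a5 was lower in NeuN+ nuclei by 2.82 on the log2 scale (FDR = 4.04e-05) and Col4a6 by 0.98 (FDR = 0.227), while Col4a3 and Col4a4 missed the threshold with -0.69 (FDR = 0.331) and -0.79 (FDR = 0.293). With the pool as a block Col4a4 was called (FDR = 0.0373).

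Markers of vascular cells are given beside these values. The 6 endothelial markers together reached 8.04 to 28.0 CPM in kainate NeuN+ and 12.8 to 27.7 in sham NeuN+ libraries, and 28.0 to 48.0 and 22.3 to 50.1 in the NeuN- libraries. The 6 markers of pericytes and smooth muscle reached 12.1 to 24.0 and 8.59 to 23.3 CPM in NeuN+ libraries, and 43.2 to 113 and 69.3 to 149 in NeuN- libraries. The sums of the endothelial list overlapped between the fractions and those of the pericyte list did not, with 3 of 6 and 5 of 6 markers called lower in NeuN+ nuclei and none called higher. With the pool as a block, 1 endothelial marker, the receptor gene Tek, was called higher in NeuN+ nuclei and 5 lower. Of 6 markers of fibroblasts and meninges, 3 were called lower and 1, the proteoglycan gene Dcn, was called higher in NeuN+ nuclei. The part of these cells in the values of Col4a1 and Col4a2 was not tested.

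Of the beaded filament, Col6a1 was at 247, 249 and 212 CPM in kainate NeuN+ and 364, 202 and 297 in sham NeuN+ libraries, and at 19.2, 54.3, 56.1, 41.7 and 55.1 in the NeuN- libraries in the same order as above. It was 5.70-fold higher in NeuN+ nuclei (log2 fold change 2.51, FDR = 0.000126), and Col6a2 and Col6a4 were called higher with it, while Col6a3, Col6a5 and Col6a6 were not called without the block. Col19a1, the FACIT-like gene of interneurons, was at 161, 164 and 110 CPM in kainate NeuN+ and 246, 169 and 184 in sham NeuN+ libraries, and at 10.8, 23.4 and 25.2 in kainate NeuN- and 15.7 and 30.5 in sham NeuN- libraries. The groups did not overlap and the log2 fold change was 2.99 (standard error 0.34, FDR = 4.22e-05). Of the transmembrane collagens, Col25a1, whose product occurs in amyloid plaques, and Col23a1 were called higher in NeuN+ nuclei with 2.32 and 1.16. Of the fibrillar class, Col5a1, Col5a2 and Col11a1 were higher with 2.42, 2.42 and 1.51.

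**Figure D2:**
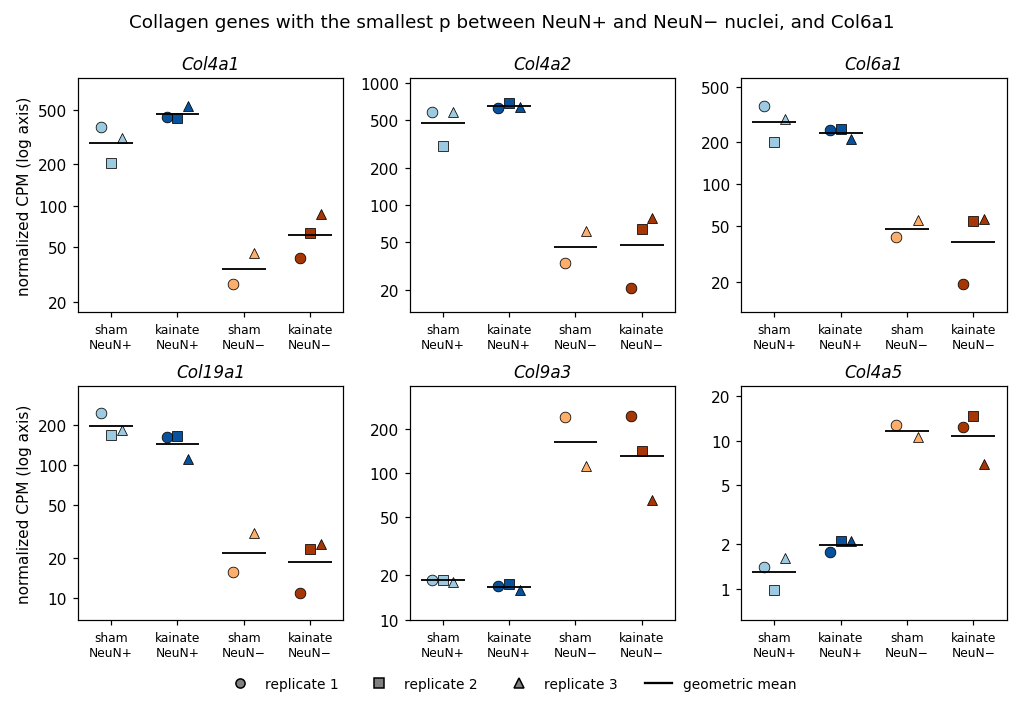
Normalized CPM (log axis) of 6 collagen genes in every library, by group, with the replicate shown by the symbol and the geometric mean by a line. Col4a1, Col4a2, Col6a1 and Col19a1 lie higher in all 6 NeuN+ libraries than in the 5 NeuN- libraries, and Col9a3 and Col4a5 lie lower.

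Lower in neurons were the chains of collagen IX, of types I and III and several others. Col9a3 was at 17.0, 17.4 and 15.8 CPM in kainate NeuN+ and 18.7, 18.8 and 18.1 in sham NeuN+ libraries, and at 245, 141 and 65.6 in kainate NeuN- and 240 and 111 in sham NeuN- libraries. The NeuN+ libraries were alike and the NeuN- libraries spread over a range of several-fold without overlapping them, and the log2 fold change was -3.20 (standard error 0.34, FDR = 3.7e-05). Up to 6.07% of the exon bases of Col9a3 are shared with the neighbouring gene Tcfl5 on the other strand, and the kit does not mark the strand. Col9a2 and Col9a1 followed with -1.73 and -1.18. Col1a2, Col3a1 and Col1a1 were lower in NeuN+ nuclei by 2.47, 1.82 and 1.13 on the log2 scale, and Col16a1, Col11a2, Col5a3, Col8a1, Col18a1 and Col2a1 were also called lower. Col4a5 was at 1.78, 2.09 and 2.12 CPM in kainate NeuN+ and 1.41, 0.976 and 1.61 in sham NeuN+ libraries, against 12.4, 14.7, 6.97, 12.8 and 10.6 in the NeuN- libraries. With the treatments taken apart, 11 collagens were called higher (11.3% of all genes were) and 9 lower (9.39%) in NeuN+ nuclei in the kainate libraries, and 10 higher (9.11%) and 11 lower (7.63%) in the sham libraries. Without sham NeuN- replicate 1, 11 were higher (22.3% of all genes) and 21 lower (37.5%), and without sham NeuN- replicate 3, 15 were higher (16.6%) and 12 lower (12.1%). Each of these fits has 1 sham NeuN- library, which is assumed to vary like the other groups.

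Collagen genes that lie side by side on a chromosome did not always fall on the same side of this comparison. These neighbours, taken with a gap of at most 200 kb, were chosen after the values had been seen, and coordinates are of GRCm38 (mm10). Col4a1 and Col4a2 on chromosome 8 start head to head with 22 shared exon bases, and both were high in neurons. Col4a6 and Col4a5 on chromosome X start head to head with 1.31 kb between them, and both were called lower in NeuN+ nuclei. Col4a4 and Col4a3 on chromosome 1 start 71 bases apart, and neither was called without a block, while Col4a4 was called lower with the pool as a block. Col6a2 and Col6a1, with 85.2 kb between them on chromosome 10, were both higher in NeuN+ nuclei. On chromosome 9, Col6a6, Col6a5 and Col6a4 follow each other on the same strand with gaps of 27.9 and 28.8 kb, and their log2 fold changes were -0.79 (FDR = 0.411), 0.39 (FDR = 0.657) and 1.40 (FDR = 0.0996). With the pool as a block, Col6a5 and Col6a4 were called higher (FDR = 0.118 and 0.0119) and Col6a6 was not called. In contrast, Col9a1 and Col19a1 end tail to tail 9.21 kb apart on chromosome 1, and the log2 fold change between the fractions was -1.18 for Col9a1 (FDR = 0.0512) and 2.99 for Col19a1. Likewise Col3a1 and Col5a2 end 24.6 kb apart on that chromosome and had log2 fold changes of -1.82 and 2.42 (FDR = 0.00094 and 0.000158).

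The second comparison was kainate against sham in NeuN+ nuclei. Neurons of the CLH had more transcript of 2 fibrillar collagens, Col27a1 and Col5a3, which were the only collagens called without the block. These are 4.55% of the 44 genes, where 0.157% of all genes tested were called higher. No collagen was called lower (0.00737% of all genes), at an unadjusted p below 0.05, 5 were higher (1.46% of all genes) and 0 lower (0.626%), and DESeq2's Wald test called 3 higher (1.03%) and 0 lower (0.227%). With the replicate block the called genes were 8, namely Col27a1, Col5a3, Col11a1, Col5a1, Col18a1, Col4a1, Col16a1 and Col6a5, all higher, which is 18.2% of the 44 where 3.19% of all genes were called higher, and 0 were called lower where 1.9% of all genes were. The median log2 fold change was 0.17 over the 44 genes and -0.02 over all genes tested, and 27 collagens were above 0 and 17 below. In the fibrillar class 10 of 11 were above 0, the exception being Col1a2 with -0.51 (FDR = 1).

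Col27a1 encodes the chain of collagen XXVII, a fibrillar collagen known from cartilage. It lies at chr4:63214004-63334991 on the plus strand and shares no exon bases with another gene. In the 250 bases before its start site in RefSeq (chr4:63215162-63215411, GRCm38.p6, plus strand), shown because it was the collagen with the largest change, the capitals mark matches, on either strand, to the motifs described at the end. GENCODE begins the gene further upstream than this start site.
Col27a1: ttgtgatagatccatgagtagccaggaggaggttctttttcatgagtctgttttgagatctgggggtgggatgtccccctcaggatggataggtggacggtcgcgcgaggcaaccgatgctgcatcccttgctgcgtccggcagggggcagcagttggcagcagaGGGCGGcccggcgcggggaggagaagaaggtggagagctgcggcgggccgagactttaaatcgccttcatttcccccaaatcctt

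Col27a1 was at 5.91, 19.1 and 18.6 CPM in the sham NeuN+ libraries (replicates 1 to 3) and at 133, 289 and 188 CPM in the kainate NeuN+ libraries. The lowest kainate library was above the highest sham library by a wide margin. By replicate number the difference was 4.47, 3.91 and 3.33 on the log2 scale, with the small count that edgeR adds before taking logs. The log2 fold change was 3.80 (standard error 0.49, FDR = 0.0247), or 13.9-fold, and 3.89 with the replicate block (standard error 0.22, FDR = 2.34e-19). It was called in all 21 other settings tried, where it ranged from 3.43 to 4.04 with FDRs up to 0.203. In NeuN- nuclei, Col27a1 was at 53.9, 86.2 and 68.2 CPM with kainate and at 87.2 and 76.9 with sham. These groups overlapped and the log2 fold change was -0.24 (standard error 0.49, FDR = 1). Per length, Col27a1 moved from 1.12 to 15.6 CPM per kb in NeuN+ nuclei and from 6.30 to 5.33 in NeuN- nuclei.

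The order of the fractions for Col27a1 turned with the treatment. In the sham libraries it was lower in NeuN+ than in NeuN- nuclei, with a log2 fold change of -2.49 (FDR = 0.00569), and in the kainate libraries it was higher, with 1.55 (FDR = 0.0434). Over both treatments the value was -0.47 (FDR = 0.356), and -0.71 with the pool as a block (FDR = 0.046). Of the summed collagen CPM, Col27a1 made up 0.231% to 1.15% in sham NeuN+ and 4.83% to 9.05% in kainate NeuN+ libraries. Col4a2, the highest per length in these groups, made up 18.5% to 24.8% and 21.7% to 22.8% in the same order.

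**Figure D3:**
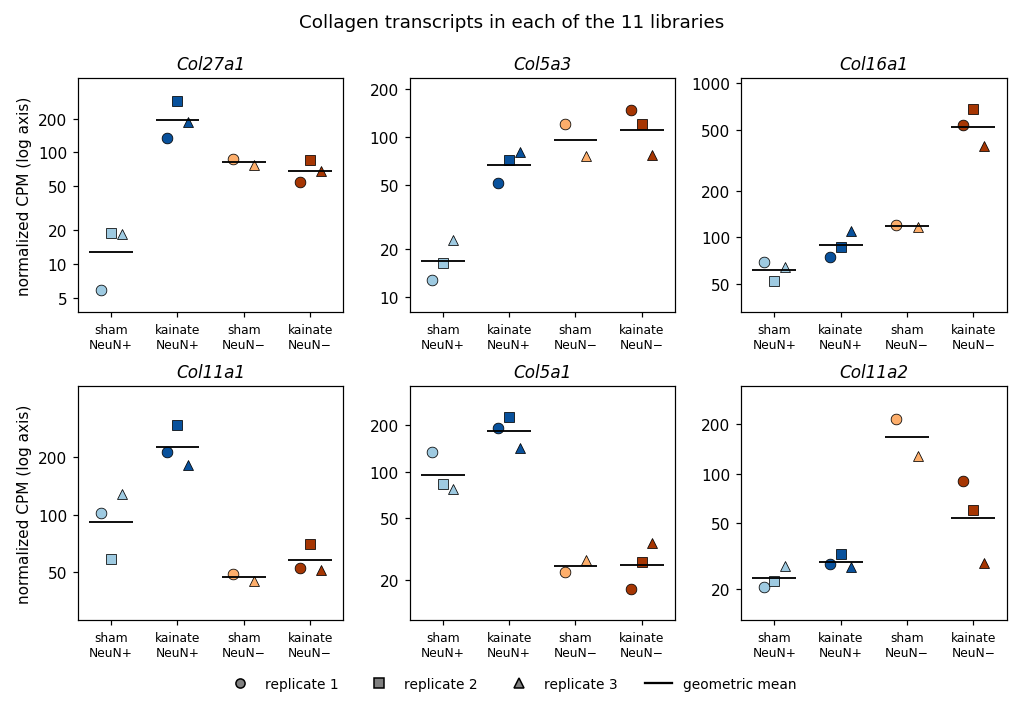
Normalized CPM (log axis) of 6 collagen genes in every library, by group, with the replicate shown by the symbol and the geometric mean by a line. Kainate NeuN+ libraries of Col27a1, from 133 to 289 CPM, lie above sham NeuN+ libraries, and kainate NeuN- libraries of Col16a1, from 393 to 676 CPM, lie above all other libraries.

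Col5a3, a chain of collagen V, which joins fibrils of other types, lies at chr9:20770050-20815067 on the minus strand. Its window before the RefSeq start site (chr9:20815068-20815317, minus strand) is given for comparison with that of Col27a1, since these were the collagens called in NeuN+ nuclei without the block.
Col5a3: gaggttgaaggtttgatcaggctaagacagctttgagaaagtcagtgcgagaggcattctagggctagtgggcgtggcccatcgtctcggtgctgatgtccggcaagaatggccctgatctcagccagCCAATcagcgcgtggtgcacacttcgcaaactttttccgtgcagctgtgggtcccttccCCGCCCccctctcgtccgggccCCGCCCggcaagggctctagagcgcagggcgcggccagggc

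Col5a3 was at 12.8, 16.3 and 22.8 CPM in sham NeuN+ and at 51.7, 71.7 and 80.5 CPM in kainate NeuN+ libraries. The groups did not overlap and each pair of one replicate number differed by 1.82 to 2.13 on the log2 scale. The log2 fold change was 1.97 (standard error 0.38, FDR = 0.153), or 3.93-fold, and 1.99 with the replicate block (FDR = 3.97e-11). In NeuN- nuclei Col5a3 was at 148, 122 and 77.1 CPM with kainate and at 121 and 76.9 with sham, which overlapped, and the log2 fold change there was 0.22 (standard error 0.41, FDR = 1). The difference of Col5a3 between the fractions was -2.52 in sham libraries (FDR = 0.00212) and -0.77 in kainate libraries (FDR = 0.265).

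The call of Col5a3 without the block was not stable to single libraries. It was lost without kainate NeuN+ replicate 1 (FDR = 0.257), 2 (FDR = 0.545) or 3 (FDR = 0.593), without sham NeuN+ replicate 1 (FDR = 0.495), 2 (FDR = 1) or 3 (FDR = 0.693) and without kainate NeuN- replicate 2 (FDR = 0.317). The log2 fold change of Col5a3 stayed between 1.80 and 2.22 over these and all other settings.

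Col11a1 and Col5a1 encode chains of collagens XI and V, which share a fibril-nucleating role. Col11a1 was at 102, 58.3 and 129 CPM in sham NeuN+ and at 213, 295 and 181 in kainate NeuN+ libraries, which did not overlap. Its log2 fold change was 1.26 (standard error 0.37, FDR = 0.758), and 1.29 with the replicate block (FDR = 3.16e-05). Without the block, Col11a1 was called by DESeq2's Wald test (FDR = 0.0635), among protein-coding genes only (FDR = 0.238) and with the fractions fitted apart (FDR = 0.22), and in none of the 11 fits that left out 1 library. Col5a1 was at 135, 83.0 and 76.9 CPM in sham NeuN+ and at 192, 225 and 143 in kainate NeuN+ libraries. Here too all kainate libraries were above all sham libraries, with 0.93 (standard error 0.37, FDR = 1) and 0.95 with the block (FDR = 0.000847). In NeuN- nuclei, Col11a1 was at 52.8, 70.6 and 51.5 CPM with kainate and 49.2 and 44.8 with sham (log2 fold change 0.31, FDR = 1), and Col5a1 at 17.5, 26.2 and 34.6 against 22.4 and 26.9 (0.08, FDR = 1).

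Outside the fibrillar class, differences were called with the block only. Col18a1, a multiplexin of basement membranes and the source of endostatin, was at 14.6, 16.4 and 15.6 CPM in sham NeuN+ and at 20.6, 28.3 and 25.8 in kainate NeuN+ libraries (0.68, FDR = 1, and 0.67 with the block, FDR = 0.0708). Col4a1, with the values given above, had 0.66 (FDR = 1) and 0.70 with the block (FDR = 0.0162), and its partner Col4a2 had 0.41 (FDR = 1) and 0.46 with the block (FDR = 0.366). Both had every kainate NeuN+ library above every sham NeuN+ library. Col6a5, a chain of collagen VI, was at 3.89, 8.27 and 10.1 CPM in sham and 13.7, 15.4 and 21.4 in kainate NeuN+ libraries (1.18, FDR = 1, and 1.24 with the block, FDR = 0.00271). Col16a1 was at 69.0, 52.2 and 64.3 CPM in sham and 74.3, 86.5 and 110 in kainate NeuN+ libraries (0.54, FDR = 1, and 0.54 with the block, FDR = 0.127). Col7a1, the chain of the anchoring fibrils of skin, was at 10.9, 22.0 and 22.7 CPM in sham and 14.7, 27.2 and 29.95 in kainate NeuN+ libraries, which overlapped (0.37, FDR = 1).

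Counted by overlap alone, 10 collagens had all kainate NeuN+ libraries above all sham NeuN+ libraries (4.26% of all genes did), the 8 called with the block and Col4a2 and Col4a5, and 3 had them all below (3.6% of all genes). The last 3, named after their values were seen, were Col13a1, Col19a1 and Col9a3 with log2 fold changes of -0.67, -0.46 and -0.15 (FDR = 1 each). Markers of other cells in the NeuN+ libraries are given beside these counts. No marker of any of the 8 cell type lists was called without the block. With it, 3 of 5 astrocyte markers were higher with kainate (Aldh1l1, Aqp4 and Gfap) and 2 lower, and the summed astrocyte markers were 68.7 to 218 CPM with kainate and 66.1 to 124 with sham. Summed oligodendrocyte markers were 175 to 356 and 214 to 389 CPM, and summed microglial markers were 26.0 to 42.6 and 21.6 to 24.7 CPM, with Csf1r higher and P2ry12 lower in the blocked fit. That fit also called the neuronal markers Gad1 and Gad2 higher, and the oligodendrocyte marker Mog and the fibroblast marker Dcn lower. Of all listed markers only Igf2, of the fibroblast list, was at 0 in a NeuN+ library. Their part in the result was not tested.

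**Figure D4:**
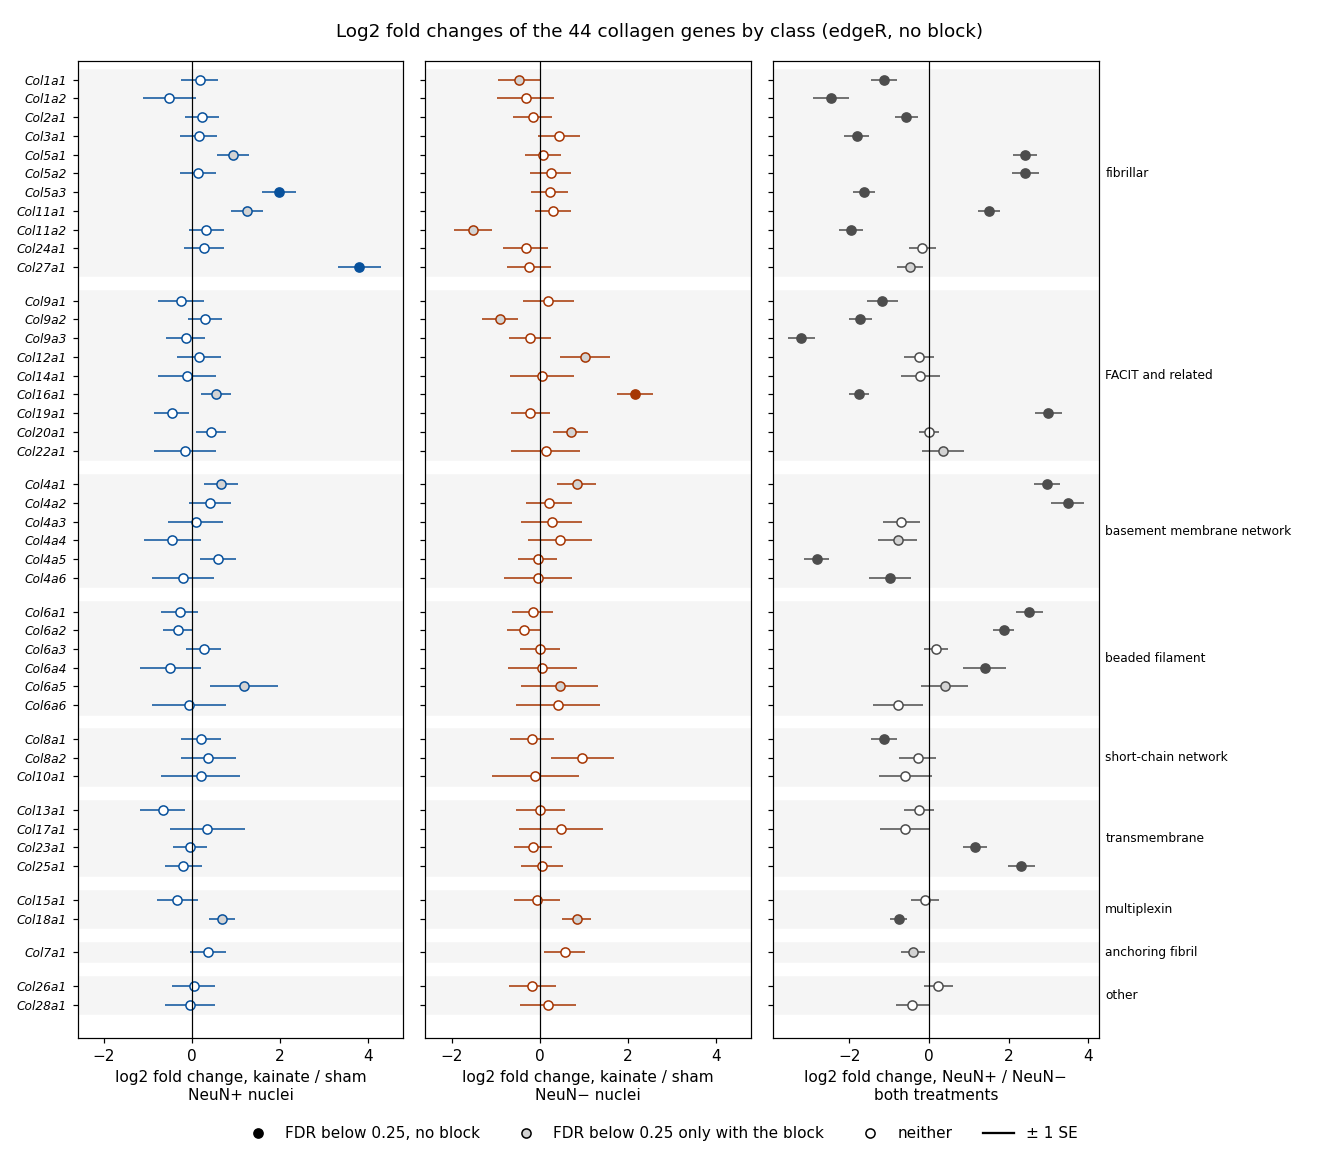
Log2 fold change and standard error of each of the 44 collagen genes, grouped by class, for kainate against sham in NeuN+ nuclei (left), in NeuN- nuclei (middle) and for NeuN+ against NeuN- nuclei (right). Filled points were called at FDR below 0.25 without the block, grey points only with the block; Col27a1 and Col5a3 are filled on the left and Col16a1 in the middle.

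The third comparison was kainate against sham in NeuN- nuclei. Here the one collagen called without the block was another gene, Col16a1, which was higher. It is 2.27% of the 44 genes, where 0.0933% of all genes were called higher, and 0 collagens were called lower (0.00737% of all genes). At an unadjusted p below 0.05, 2 collagens were higher (1.35% of all genes) and 2 lower (0.695%), and DESeq2's Wald test called 1 higher (0.889%) and 1 lower (0.273%). With the replicate block 6 were higher (13.6%, where 2.93% of all genes were), namely Col16a1, Col4a1, Col18a1, Col12a1, Col20a1 and Col6a5, and 3 lower (6.82%, where 2.86% of all genes were), namely Col11a2, Col1a1 and Col9a2. No sham NeuN- replicate 2 was analysed here, so in the blocked fit kainate NeuN- replicate 2 has no partner and adds nothing to this comparison. The blocked comparison then rests on replicates 1 and 3, and the sham library of replicate 1 is the low-input one. Without sham NeuN- replicate 3, 6 collagens were called higher (5.53% of all genes were) and 2 lower (1.06%) in the fit without the block, which then rests on the low-input sham NeuN- replicate 1 alone and assumes that it varies like the other groups. The median log2 fold change was 0.06 over the 44 genes and 0.02 over all genes.

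Col16a1 encodes the chain of collagen XVI, a FACIT collagen that links fibrils and cells. It lies at chr4:130047840-130099283 on the plus strand, apart from all other annotated exons. The 250 bases before its RefSeq start site (chr4:130047590-130047839, GRCm38.p6, plus strand) are shown because this was the collagen that led in glia, again with motif matches in capitals.
Col16a1: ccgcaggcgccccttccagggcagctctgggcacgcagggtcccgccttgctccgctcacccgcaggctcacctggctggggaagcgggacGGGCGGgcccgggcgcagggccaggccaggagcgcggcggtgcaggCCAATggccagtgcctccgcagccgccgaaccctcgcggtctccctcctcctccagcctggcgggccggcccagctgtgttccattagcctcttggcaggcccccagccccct

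Col16a1 was at 120 and 117 CPM in the sham NeuN- libraries (replicates 1 and 3) and at 532, 676 and 393 CPM in the kainate NeuN- libraries (replicates 1 to 3). The sham libraries were alike and all kainate libraries lay far above them. The log2 fold change was 2.17 (standard error 0.41, FDR = 0.142), or 4.51-fold, and 1.95 with the replicate block (standard error 0.23, FDR = 1.58e-08). Per length, its mean moved from 17.5 to 79.1 CPM per kb, above Col9a3 at 39.0, and it made up 26.3% to 35.8% of the summed collagen CPM in kainate NeuN- libraries against 9% to 9.29% in sham NeuN- libraries. Over the settings tried the log2 fold change was 1.95 to 2.22. Without the block the call of Col16a1 was lost without kainate NeuN- replicate 1 (FDR = 0.411) or 2 (FDR = 0.587), sham NeuN- replicate 1 (FDR = 0.646), kainate NeuN+ replicate 2 (FDR = 0.428) and sham NeuN+ replicate 2 (FDR = 0.333) or 3 (FDR = 0.35). The same happened without both libraries of low input (2.01, FDR = 1), with no filter on low counts (FDR = 0.391) and with the fractions fitted apart (FDR = 1). Between the fractions, Col16a1 was lower in NeuN+ nuclei by 1.75 on the log2 scale (FDR = 0.000204), by 0.94 in sham libraries (FDR = 0.174) and by 2.57 in kainate libraries (FDR = 0.00122).

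Col11a2, a chain of collagen XI, was lower with kainate in the blocked fit. It was at 215 and 129 CPM in sham NeuN- and at 90.9, 60.4 and 28.9 in kainate NeuN- libraries, without overlap. Its log2 fold change was -1.52 (standard error 0.44, FDR = 1), and -1.70 with the replicate block (FDR = 2.07e-06). Without the block, Col11a2 was called by DESeq2's Wald test (FDR = 0.092), among protein-coding genes only (FDR = 0.0884) and without sham NeuN- replicate 3 (FDR = 0.227). In NeuN+ nuclei Col11a2 was at 20.6, 22.4 and 27.4 CPM with sham and 28.5, 32.7 and 27.1 with kainate (0.33, FDR = 1). Col9a2, a chain of collagen IX, was at 43.3 and 23.2 CPM in sham and 26.4, 15.4 and 11.7 in kainate NeuN- libraries, which overlapped (-0.90, FDR = 1, and -0.85 with the block, FDR = 0.129). Col1a1, a chain of collagen I, was at 28.2 and 29.1 CPM in sham and 17.0, 27.7 and 17.3 in kainate NeuN- libraries (-0.47, FDR = 1, and -0.74 with the block, FDR = 0.21). Its low-input kainate library, replicate 2, lay close to the sham libraries. In NeuN+ nuclei, Col9a2 was at 6.04, 6.46 and 7.35 CPM with sham and 8.11, 9.48 and 6.80 with kainate, and Col1a1 at 5.57, 12.8 and 12.9 against 6.26, 14.96 and 14.01, and for each gene the groups overlapped. Without either low-input library, the log2 fold change of Col9a2 was closer to 0, at -0.26.

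Of the genes higher with the block, Col18a1 was at 25.6 and 24.5 CPM in sham and 46.8, 49.8 and 37.6 in kainate NeuN- libraries, without overlap (0.84, FDR = 1, and 0.74 with the block, FDR = 0.129). Col20a1, a FACIT collagen, was at 21.6 and 20.9 CPM in sham and 42.1, 32.4 and 29.1 in kainate NeuN- libraries, also without overlap (0.70, FDR = 1, and 0.72, FDR = 0.171). Col4a1 had 0.84 (FDR = 1) and 0.80 with the block (FDR = 0.0377), with groups that overlapped. Without the block, Col4a1 ranged from 0.34 to 1.25 as single libraries were left out. Col12a1, a FACIT collagen of tendon and fascia, was at 4.86 and 29.3 CPM in sham and 26.0, 42.5 and 36.4 in kainate NeuN- libraries (1.03, FDR = 1, and 1.29 with the block, FDR = 0.0153). Its low value was in the low-input sham library, and without both low-input libraries the log2 fold change of Col12a1 was 0.11. It was 0.28 without sham NeuN- replicate 1 (FDR = 0.98) and 2.84 without sham NeuN- replicate 3 (FDR = 0.18), each of which leaves 1 sham NeuN- library. Col6a5 rested on that library too, with 0.767 and 13.8 CPM in sham and 3.14, 8.21 and 18.7 in kainate NeuN- libraries (0.46, FDR = 1, and 1.00 with the block, FDR = 0.191), and its value was -0.32 without both low-input libraries. In NeuN+ nuclei, Col20a1 was at 18.4, 24.3 and 27.0 CPM with sham and 20.4, 29.6 and 44.2 with kainate, and Col12a1 at 20.9, 17.1 and 20.2 against 16.4, 28.6 and 20.3. Col7a1 was at 15.2 and 30.5 CPM in sham and 25.1, 38.9 and 37.9 in kainate NeuN- libraries (0.57, FDR = 1).

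Counted by overlap, 5 collagens had all kainate NeuN- libraries above both sham libraries (4.7% of all genes did), namely Col16a1, Col18a1, Col20a1, Col11a1 and Col3a1, and 3 had them all below (3.52% of all genes), namely Col11a2, Col1a1 and Col6a2. Col3a1 and Col6a2 were named after their values were seen and had log2 fold changes of 0.44 and -0.37 (FDR = 1 each). Markers of glial types moved in the same libraries. No marker was called without the block, and with it 3 of 4 oligodendrocyte markers, 3 of 3 precursor markers and 2 of 4 microglial markers were lower with kainate, while the astrocyte marker Gfap was higher and Gja1 and Slc1a3 were lower. Summed oligodendrocyte markers were 3880 to 24300 CPM with kainate and 7320 to 34500 with sham, precursor markers 252 to 1280 and 703 to 2320, microglial markers 369 to 1070 and 458 to 2230, and astrocyte markers 515 to 2480 and 747 to 2880. No marker of these lists was at 0, and their part in the change of Col16a1 or Col11a2 was not tested. Endothelial markers summed to 28.0 to 48.0 and 22.3 to 50.1 CPM with 0 of 6 called in either fit, and those of fibroblasts and meninges to 23.8 to 49.5 and 28.6 to 55.3 with 0 of 6 called. Those of pericytes and smooth muscle summed to 43.2 to 113 and 69.3 to 149 CPM, with 1 of 6, Vtn, lower in the blocked fit, and of the 6 neuronal markers 1, Gad1, was higher in it.

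The difference between the kainate effect in NeuN+ and that in NeuN- nuclei was tested as an interaction. Without the block 0 collagens were called in either direction, where 0.00246% of all genes were called with a positive difference (the log2 fold change in NeuN+ minus that in NeuN- nuclei) and 0% with a negative one. At an unadjusted p below 0.05, 3 collagens had a positive (0.447% of all genes) and 1 a negative difference (0.462%), and DESeq2's Wald test called 1 positive (0.0756%) and 0 negative (0.0265%). With the replicate block 6 had a positive difference (13.6%, where 1.23% of all genes did) and 1 a negative one (2.27%, where 0.702% did). Col27a1 led, with 4.04 on the log2 scale (standard error 0.67, FDR = 0.534) and 4.32 with the block (FDR = 1.05e-13), and with the pool as a block it was 4.43 (FDR = 0.0325). No other collagen was called with the pool as a block. Without the replicate number in the fit, Col27a1 ranged from 3.67 to 4.28 as single libraries were left out. Col16a1 was the one gene with a negative difference, with -1.63 (FDR = 1) and -1.41 with the block (FDR = 0.00345). Of the other 5, Col5a3, Col11a2, Col11a1 and Col5a1 are fibrillar and Col9a2 is a FACIT chain, with blocked values of 1.85, 2.03, 1.14, 0.93 and 1.14 in that order. For Col11a2 and Col9a2 the sign comes with lower values under kainate in NeuN- nuclei (-1.70 and -0.85 with the block), against 0.33 (FDR = 0.734) and 0.29 (FDR = 0.932) in NeuN+ nuclei. In the fibrillar class the median interaction was 0.64 without and 0.91 with the block, and over all genes tested it was -0.03 and -0.09.

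The remaining collagens were called in neither kainate comparison, with or without the block. Of the beaded filament, Col6a1, Col6a2, Col6a3, Col6a4 and Col6a6 had log2 fold changes from -0.49 to 0.27 in NeuN+ and from -0.37 to 0.42 in NeuN- nuclei. Those of the 4 transmembrane collagens ranged from -0.67 to 0.35 and from -0.15 to 0.48. The 3 short-chain collagens, Col8a1, Col8a2 and Col10a1, had 0.20 to 0.37 and -0.18 to 0.97, at mean levels under 1 CPM per kb in each group. Col4a3, Col4a4 and Col4a6 were at 0.157 to 0.822 CPM per kb in each group and their standard errors were 0.62 to 0.77 on the log2 scale, among the larger ones of the 44 genes. Col19a1, high in neurons, had -0.46 with kainate in NeuN+ nuclei (FDR = 1, and -0.47 with the block, FDR = 0.268) and -0.22 in NeuN- nuclei (FDR = 1).

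Genes that make, process and bind collagen were followed in 5 lists. Over all genes, as above, 0.157% were called higher and 0.00737% lower without the block in NeuN+ nuclei and 3.19% and 1.9% with it, and in NeuN- nuclei 0.0933% and 0.00737% without it and 2.93% and 2.86% with it. Of 14 genes for processing and cross-linking, 1 was called higher in NeuN+ nuclei without the block and 3 with it, and 2 were called lower with it. The gene called in both fits was Tll1, a tolloid-like protease that trims procollagens. Tll1 was at 6.24 to 7.35 CPM in sham NeuN+ and 66.3 to 94.6 CPM in kainate NeuN+ libraries, and the log2 fold change was 3.64 (standard error 0.65, FDR = 0.121). In NeuN- nuclei it was 1.82 (FDR = 1), and 1.74 with the block (FDR = 6.97e-05). There 4 genes of this list were called higher with the block, among them the lysyl oxidase-like gene Loxl1, which cross-links matrix proteins, with 1.92 (FDR = 0.865, and 0.00826 with the block), and the transglutaminase gene Tgm2 with 1.58 (FDR = 1, and 0.00165 with the block), and 0 were called lower.

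Of 11 receptors of collagen, 0 were called without the block in either fraction. With it 4 were higher in NeuN+ nuclei (3.19% of all genes were), namely the integrin subunit gene Itga11, the adhesion receptor gene Adgrg1, the receptor kinase gene Ddr1 and the inhibitory receptor gene Lair1. Itga11 was at 13.9 to 17.6 CPM in sham and 33.7 to 56.0 in kainate NeuN+ libraries (1.54, FDR = 1, and 1.52 with the block, FDR = 3.04e-06), and Adgrg1 had 1.29 (FDR = 1) and 1.31 with the block (FDR = 1.76e-06). Summed over the list, the receptors were at 310 to 342 CPM in kainate and 181 to 223 in sham NeuN+ libraries, which did not overlap, and at 478 to 1420 and 485 to 1560 in NeuN- libraries, which did. In NeuN- nuclei 1 receptor was higher and 1 lower with the block.

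Of 19 genes for folding and modification, 3 were higher and 1 lower in NeuN+ nuclei with the block (3.19% and 1.9% of all genes), and 1 higher and 2 lower in NeuN- nuclei (2.93% and 2.86%). P4ha3, a subunit of the enzyme that hydroxylates prolines of collagen, had the smallest p in NeuN+ nuclei, with 1.45 (FDR = 0.768) and 1.42 with the block (FDR = 0.00306). P3h3, a prolyl hydroxylase of another site, was lower with -0.79 (FDR = 1) and -0.75 with the block (FDR = 0.0197). Of 15 partners in basement membranes, such as laminins and nidogens, 3 were higher and 1 lower in NeuN+ nuclei and 1 higher and 2 lower in NeuN- nuclei with the block, and of 7 genes for collagen breakdown, 1 was higher in NeuN+ and 1 lower in NeuN- nuclei. Lama2, a laminin chain, had -1.25 in NeuN- nuclei (FDR = 1, and 0.00425 with the block), and Mmp2, a gelatinase, had -1.20 (FDR = 1, and 0.049 with the block).

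Promoter windows of RefSeq (GRCm38.p6) were searched for letters of known motifs, over the 250 bases before each start site and on both strands. Windows were at hand for 35 of the 44 collagens. Those without one were Col12a1, Col14a1, Col1a1, Col22a1, Col26a1, Col2a1, Col4a3, Col5a2 and Col9a3.

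The letters searched were GGGCGG (the GC box), CCAAT (the CCAAT box), TATAAA (the TATA box), TGANTCA (the AP-1 site), TGACGTCA (the cAMP response element) and TTCNNNGAA (the STAT site), and no match overlapped that of another motif in the windows printed. A gene was counted once if any of its windows held a match, for the 35 collagens with 38 windows as for all 27025 genes with 32851 windows. The GC box was found in 21 of the 35 collagens (60%) and in 35.4% of all genes, and of the collagens called in a kainate comparison, Col27a1, Col16a1, Col5a3, Col11a1, Col5a1, Col11a2, Col18a1, Col6a5 and Col9a2 held it, Col4a1 and Col20a1 did not, and Col12a1 and Col1a1 had no window. Of the windows of Col18a1, one held it and the other did not. In Col27a1 it was the one match, starting 85 bases before the start site. The CCAAT box was found in 13 collagens (37.1%, and 37.5% of all genes), among them Col16a1, Col5a3 and Col11a1, and the TATA box in 5 (14.3%, and 14.3%). The AP-1 site was found in 1 collagen, Col6a1 (2.86%, and 7.82% of all genes), the STAT site in Col6a5 and Col28a1 (5.71%, and 8.13%) and the cAMP response element in 0 (1.77% of all genes). A match describes the letters of the window, and its absence says only that they are not there.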

How the data were processed

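Nuclei of the contralateral hippocampus were sorted on NeuN and their mRNA was sequenced in 11 libraries. Per the study's methods, the authors trimmed reads with Trim Galore 0.4.3, aligned them to mm10 with Rsubread and counted uniquely mapped reads per GENCODE M16 gene with featureCounts, and deposited raw counts of reads per gene, with no normalization. Libraries were run on more than one sequencer, and which library ran on which is not given in the sources used here. The methylation samples of the series were not used here.

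Symbols were matched to Ensembl identifiers, 105 genes had none, and positions and exon lengths were taken from GENCODE M21. Counts were filtered with filterByExpr (minimum count 10, minimum total 15), which left 40714 genes, scaled by TMM and tested with edgeR 4.0.16 (R 4.3.3) in one quasi-likelihood model with a mean for each treatment and fraction, Benjamini-Hochberg adjustment over all genes and a threshold of FDR 0.25. The study fitted the fractions apart, which was run as an alternative. The precision is that of 2 or 3 pools per group and of counting error. The same code was run on simulated counts. Their spread between libraries was set below that of the real ones, so that run does not show how the fits behave here.

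Libraries with the same replicate number were taken as pairs in the blocked fit. Their deviations from the group means correlated with r = 0.643, 0.161 and 0.491 between kainate and sham NeuN+ nuclei. Between NeuN- nuclei r was 0.76 and 0.787, and between fractions of a pool it was 0.24 to 0.668. Libraries with different numbers were not compared, and replicate 1 stood apart in every group. These correlations therefore cannot show whether the numbers mark true pairs across the treatments. The sham NeuN- group has 2 libraries, whose deviations mirror each other, so 0.76 and 0.787 are not independent. The blocked fit had 3 residual degrees of freedom against 7. Its p-values also rest on a spread that edgeR shares over all genes. They are therefore far smaller than 3 degrees of freedom alone would give. Alternatives were DESeq2 1.42.0, other filters and scalings, low input as a covariate, single libraries left out and a stricter FDR. Values in each library are given for Col27a1, Col16a1, Col7a1 and Col5a3, for collagens called in a kainate comparison or the interaction, for those with the smallest p and for the 5 highest per fraction in sham. The members, classes and gene lists were chosen with earlier results of these data known.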

Additional observations from a re-analysis of the deposited data

Results flagged for a closer look

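For 7 collagens the kainate effect differed between NeuN+ and NeuN- nuclei in edgeR's interaction test with the replicate number as a block, at FDR below 0.25. The log2 fold change in NeuN+ minus that in NeuN- nuclei was 4.32 for Col27a1 (FDR = 1.05e-13), 2.03 for Col11a2 (FDR = 4.78e-05) and 1.85 for Col5a3 (FDR = 7.05e-05). It was 1.14 for Col11a1 (FDR = 0.107), 1.14 for Col9a2 (FDR = 0.231) and 0.933 for Col5a1 (FDR = 0.224). For Col16a1 it was -1.41 (FDR = 0.00345). For Col11a2 and Col9a2 the blocked log2 fold changes were 0.33 and 0.29 in NeuN+ nuclei and -1.70 and -0.85 in NeuN- nuclei. With the pool as a block, Col27a1 alone of the 7 was called. Without a block none of the 7 passed the threshold in the test on all libraries and genes. Col27a1 passed it by DESeq2's Wald test (4.09, FDR = 8.97e-05), among protein-coding genes only (4.03, FDR = 0.189) and without sham NeuN- replicate 3 (4.14, FDR = 0.22), where the sham NeuN- group is the 1 low-input library and is assumed to vary like the other groups. The groups hold 2 or 3 libraries, too few for a test of single libraries that stand apart.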

How the results depend on the processing

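Counts of called collagens moved with the replicate block, which has 3 residual degrees of freedom and raised the calls over all genes as well, and with single libraries. The small FDRs of the blocked fit also rest on the spread of other genes. With the replicate block, 8 collagens were higher with kainate in NeuN+ nuclei against 2 without it, 6 higher and 3 lower in NeuN- nuclei against 1 and 0, and 6 positive and 1 negative in the interaction against 0 and 0. With the pool as the replicate block, 1 was positive in the interaction. In NeuN+ nuclei, 1 was higher with no filter on low counts and 1 at FDR below 0.05, and 1 to 2 with single libraries left out. In NeuN- nuclei, 0 were higher with no filter, without both low-input libraries, with the fractions fitted apart and at FDR below 0.05, and 0 to 6 with single libraries left out. There 1 was lower by DESeq2's Wald test and 1 among protein-coding genes only, and 0 to 2 with single libraries left out. In the interaction, 1 was positive by DESeq2's Wald test and 1 among protein-coding genes only, and 0 to 1 with single libraries left out. Between the fractions, 9 against 14 were lower in NeuN+ nuclei in kainate libraries only, and with single libraries left out 12 to 21 were lower and 11 to 15 higher. The cause was not tested.

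The sign turned for Col27a1 between the fractions in kainate libraries only (1.55). It turned for Col5a3 in NeuN- nuclei without kainate NeuN- replicate 1 (-0.089) or sham NeuN- replicate 3 (-0.0743), where leaving out single libraries gave up to 0.617, and for Col6a5 there without both low-input libraries (-0.32), sham NeuN- replicate 1 (-0.438) or kainate NeuN- replicate 3 (-0.662), with up to 3.69 without sham NeuN- replicate 3. It turned for Col7a1 in the interaction without both low-input libraries (0.308), kainate NeuN+ replicate 1 (0.0518), sham NeuN- replicate 1 (0.192) or kainate NeuN- replicate 3 (0.0766), with down to -0.779 without sham NeuN- replicate 3. Without the block, Col5a3 and Col7a1 passed the threshold there in no setting, and Col6a5 passed it only without sham NeuN- replicate 3 (FDR = 0.23), which leaves 1 sham NeuN- library. Scaling by DESeq2's size factors moved the median log2 fold change of all genes by at most 0.0815 in size.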
